A study of Homo sapiens with 20 samples.

Results

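Mitosis and G2/M genes were followed in SUM44, an established cell line from an invasive lobular breast carcinoma, under estradiol (E2) or its ethanol vehicle. The genes were taken by name from a list of 44 symbols of the machinery that takes a cell from G2 through division. Kinesins were left out of that list except for CENPE, which is a kinesin and was kept as listed. Of the 44 symbols, 43 were measured among 11963 genes, each through its brightest probe set carrying 1 gene symbol, and ANLN was not analysed here. Total RNA was hybridised to Affymetrix human expression arrays in 5 groups of 4. One group was collected at 0 h, after 3 days without hormone in medium with charcoal-stripped serum and before any addition. The others received 1 nM E2 for 3 h, 0.01% ethanol vehicle for 3 h, 1 nM E2 for 24 h or the same vehicle for 24 h, so that the hormone deprivation was common to all 5. The serum is 2% in the series text and 10% in the sample text, and which was used was not settled here. For the E2 arrays at 24 h the treatment characteristic says baseline. Title and description both say E2, and the title was followed. The replicates are biological according to the series text. SUM44 is a single line, so the spread between arrays is the spread between cultures of that line.

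The E2-bound estrogen receptor acts as a transcription factor in luminal breast cancer cells, and estrogen is known to move hormone-deprived cells of this kind out of G1. Cells that pass through S phase then make the mitotic machinery. Cyclins A and B with CDK1 start mitosis, Polo and Aurora kinases build the spindle, kinetochores attach chromosomes to it, the spindle checkpoint holds anaphase until the attachments are made, and the midzone proteins complete cytokinesis. RNA of most of these genes peaks in G2 and M, under control of FOXM1 and of the DREAM and B-MYB complexes. Levels below are log2 values normalised with RMA, so 1 unit is a doubling, and a level is compared only between groups of the same gene. In RNA from whole cultures, more cells in G2 and M and more RNA per such cell cannot be told apart. RMA sets all arrays to a common distribution, so a change in total RNA per cell would not be seen.

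The promoters of the genes on which the results turn are shown because the motifs of G2/M genes lie close to the start. They are the letters TTTGAA, the core of the cell cycle homology region bound by those complexes, with the variant TTCGAA, and CCAAT, the box bound by NF-Y. Each line holds the 250 bases upstream of the RefSeq gene start (GRCh38.p14), read 5′ to 3′ on the gene's strand. Where a gene has several starts, the one at the gene's 5′ end is used, or the first listed where none is. Capitals mark these motifs on either strand, so they read TTCAAA or ATTGG where the match is on the other strand. The windows are chr10:56361274-56361523, minus strand, for ZWINT, chr15:90994536-90994785, minus strand, for PRC1, chr4:127880643-127880892, plus strand, for PLK4, and chr10:60778081-60778330, plus strand, for CDK1. They are chr1:37692266-37692515, plus strand, for CDCA8, chr2:26785806-26786055, plus strand, for CENPA, and chr20:3786701-3786950, plus strand, for CDC25B. The first 4 genes had the largest E2 increases at 24 h, CDCA8 the largest at 3 h, and CENPA and CDC25B were lower with E2 at 24 h.
ZWINT: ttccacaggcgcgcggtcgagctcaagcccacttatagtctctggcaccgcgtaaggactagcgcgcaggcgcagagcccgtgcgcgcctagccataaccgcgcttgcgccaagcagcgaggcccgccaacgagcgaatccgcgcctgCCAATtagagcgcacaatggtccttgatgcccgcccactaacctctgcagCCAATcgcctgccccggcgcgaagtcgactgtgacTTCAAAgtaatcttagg
PRC1: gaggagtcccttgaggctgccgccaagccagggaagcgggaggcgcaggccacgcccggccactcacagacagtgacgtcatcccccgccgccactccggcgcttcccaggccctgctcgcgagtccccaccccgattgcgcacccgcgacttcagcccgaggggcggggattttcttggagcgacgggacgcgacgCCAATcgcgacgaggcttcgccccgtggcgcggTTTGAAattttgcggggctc
PLK4: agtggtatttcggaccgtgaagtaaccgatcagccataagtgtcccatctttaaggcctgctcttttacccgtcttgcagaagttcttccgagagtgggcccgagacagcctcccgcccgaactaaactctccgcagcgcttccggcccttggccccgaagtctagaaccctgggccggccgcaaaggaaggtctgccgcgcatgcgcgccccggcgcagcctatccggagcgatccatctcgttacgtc
CDK1: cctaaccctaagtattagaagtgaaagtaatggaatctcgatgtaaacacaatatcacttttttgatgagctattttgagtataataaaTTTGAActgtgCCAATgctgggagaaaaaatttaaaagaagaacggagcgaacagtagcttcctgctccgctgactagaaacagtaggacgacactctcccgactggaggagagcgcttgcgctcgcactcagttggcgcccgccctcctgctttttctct
CDCA8: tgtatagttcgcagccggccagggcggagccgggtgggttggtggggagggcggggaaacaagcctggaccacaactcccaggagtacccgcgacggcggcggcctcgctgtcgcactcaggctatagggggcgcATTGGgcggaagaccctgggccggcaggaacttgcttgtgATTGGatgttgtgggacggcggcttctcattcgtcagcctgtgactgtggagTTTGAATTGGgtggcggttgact
CENPA: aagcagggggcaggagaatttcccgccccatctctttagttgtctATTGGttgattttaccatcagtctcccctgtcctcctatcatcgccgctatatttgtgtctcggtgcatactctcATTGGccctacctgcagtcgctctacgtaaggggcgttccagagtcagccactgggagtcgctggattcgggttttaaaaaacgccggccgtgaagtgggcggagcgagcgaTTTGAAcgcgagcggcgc
CDC25B: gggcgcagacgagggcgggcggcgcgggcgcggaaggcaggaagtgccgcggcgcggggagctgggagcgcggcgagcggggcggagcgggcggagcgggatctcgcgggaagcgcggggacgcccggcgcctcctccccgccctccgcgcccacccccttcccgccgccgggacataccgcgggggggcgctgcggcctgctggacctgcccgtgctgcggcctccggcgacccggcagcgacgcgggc

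ZWINT, PRC1, CDK1, CDCA8 and CENPA held both TTTGAA and CCAAT in these windows, and PLK4 and CDC25B held neither. Counted from the gene start, the TTTGAA lay at -17 in ZWINT, -20 in PRC1, -23 in CDCA8 and -18 in CENPA. In CDK1 it lay farther off, at -161. In CDCA8 the TTTGAA shares a base with a CCAAT on the other strand. RefSeq promoters were matched for 35 of the 43 genes and for 9563 of all genes tested. TTTGAA was present on either strand in 19 of the 35 (54.3%) and in 9.88% of all genes, and TTCGAA in 1 (2.86%, CCNF) and in 1.42%. CCAAT was present in 27 (77.1%) and in 35.5%, and CCAAT together with TTTGAA or TTCGAA in 18 (51.4%) and in 4.53%. These counts describe the letters in the windows. They mark no binding site and were not tested against the changes in RNA.

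After 24 h, E2 raised most of the mitotic machinery above its vehicle. Of the 43 genes, 35 were higher with E2, 2 were lower and 6 did not pass the test (limma, Benjamini-Hochberg adjusted p under 0.05 over all genes). Among all genes tested, 21.5% were higher and 24.2% lower. The median change over the 43 genes was 0.24 on the log2 scale, against 0.02 over all genes. In 34 of the 43, the 4 E2 arrays lay above the 4 vehicle arrays, which held for 18.8% of all genes. The changes were small: 3 genes, ZWINT, PRC1 and PLK4, were called at 1.5-fold or more, a size reached by 3.02% of all genes. For 33 of the 43, the E2 arrays at 24 h also lay above the 16 other arrays of the series, against 7.86% of all genes.

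**Figure D1:**
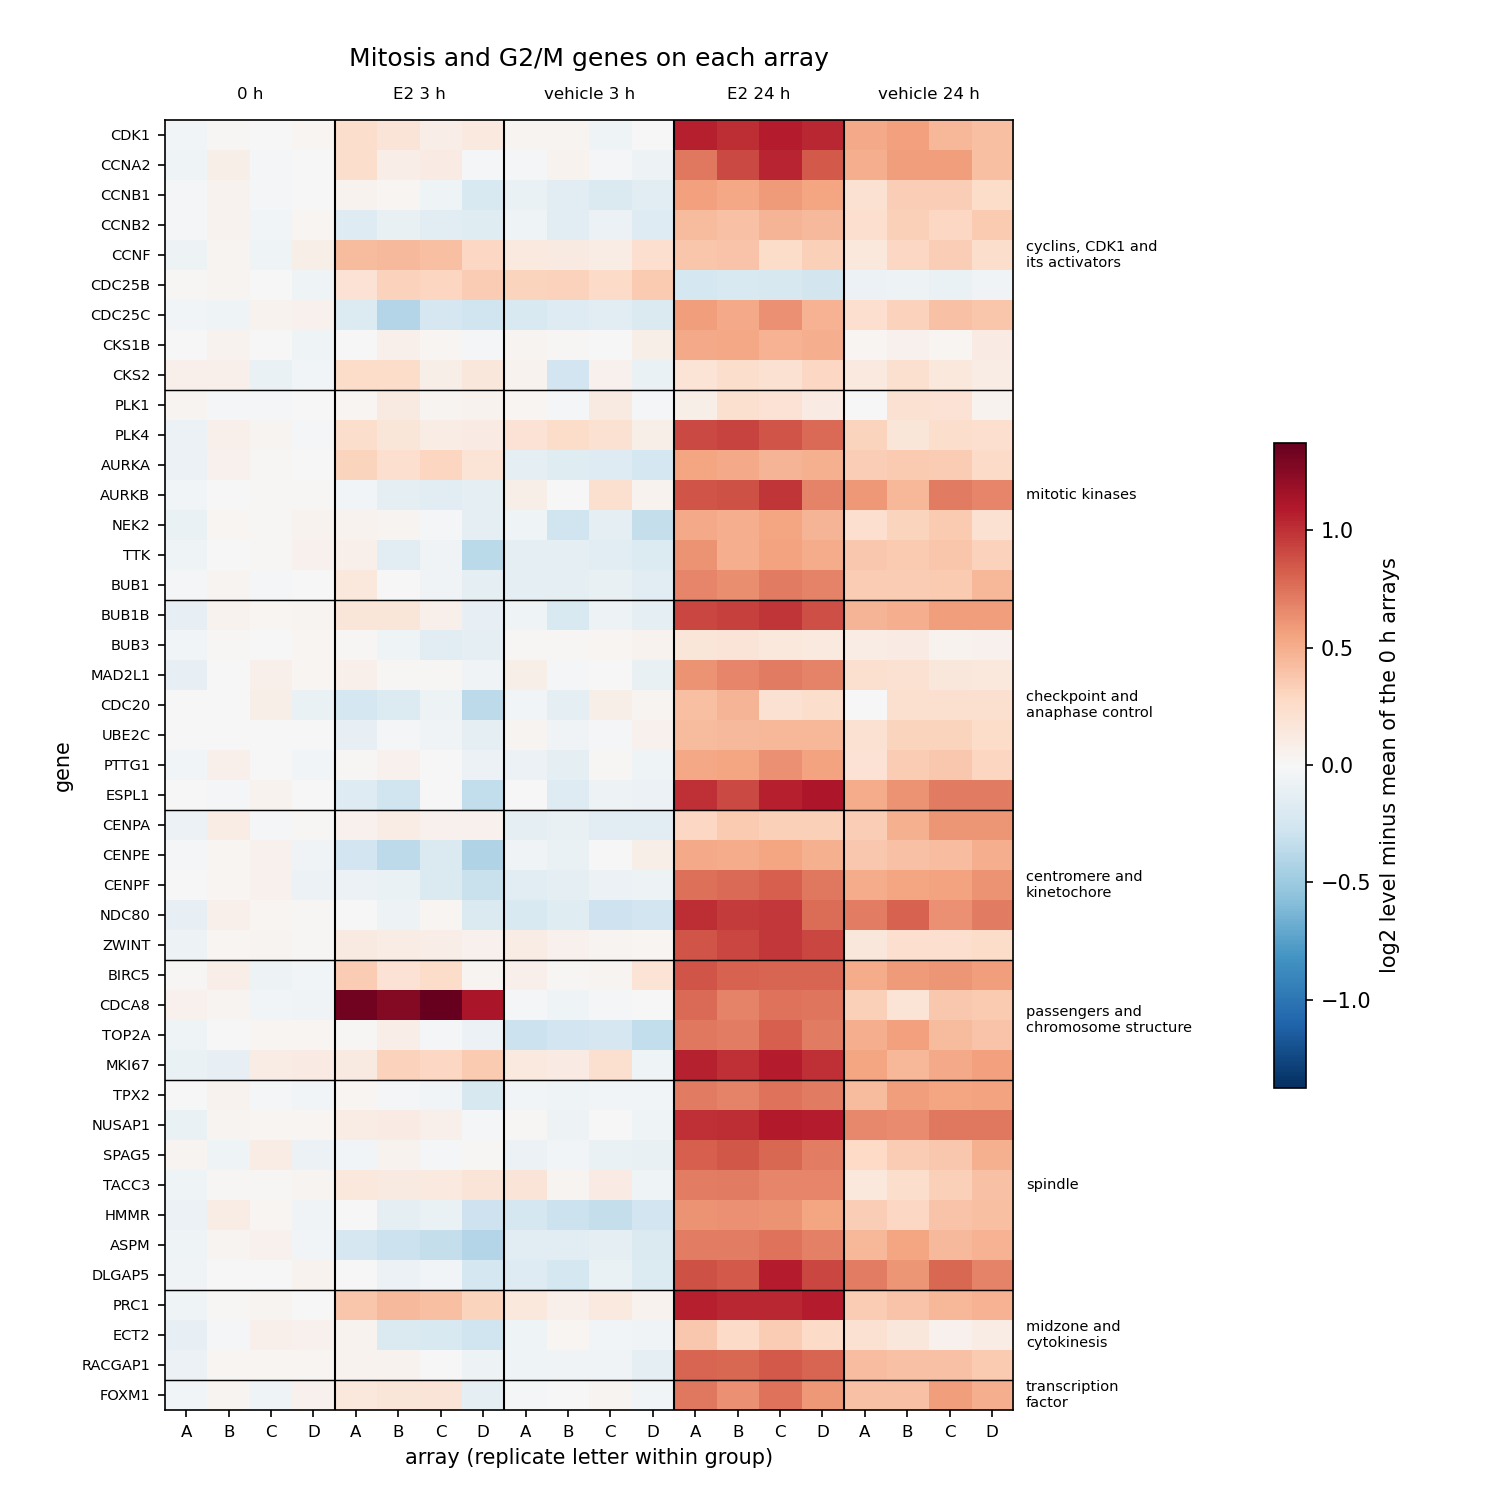
Level of each of the 43 mitosis and G2/M genes on each of the 20 arrays, as log2 level minus the mean of the gene's 0 h arrays, with genes down the page by role and arrays A to D within each group. Red is above and blue below the 0 h mean. The E2 24 h block is the reddest for most genes, and CDCA8 stands out at E2 3 h.

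CDK1, the kinase that drives entry into mitosis, had levels of 12.13, 12.08, 12.15 and 12.10 on the E2 arrays at 24 h and of 11.58, 11.63, 11.53 and 11.48 on the vehicle arrays. The groups did not overlap, and CDK1 rose by 0.56 ± 0.04 (log2, SE of the limma fit, adjusted p = 2.2e-10), with its 3 probe sets all called. Its partners moved less. CCNA2, the cyclin of S phase and G2, rose by 0.37 ± 0.06, CCNB1, the main mitotic cyclin, by 0.27 ± 0.05 and CCNB2 by 0.13 ± 0.03. CCNB1 levels were 10.37, 10.34, 10.39 and 10.35 with E2 and 10.02, 10.15, 10.15 and 10.06 with vehicle, again without overlap.

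The paired small subunits CKS1B and CKS2, which bind cyclin-dependent kinases, stood apart in this comparison. CKS1B levels were 11.70, 11.71, 11.66 and 11.68 with E2 at 24 h and 11.21, 11.24, 11.21 and 11.29 with vehicle, an increase of 0.45 ± 0.03 (limma adjusted p = 3e-10). CKS2 levels were 10.80, 10.85, 10.82 and 10.90 with E2 and 10.74, 10.83, 10.76 and 10.71 with vehicle, and its change of 0.09 ± 0.06 did not pass (limma adjusted p = 0.27). The difference between these genes was not tested. The phosphatases that activate CDK1 moved in opposite directions. CDC25C rose by 0.22 ± 0.05, though on 1 of its 3 probe sets. CDC25B had 9.69, 9.72, 9.71 and 9.68 with E2 and 9.85, 9.87, 9.84 and 9.89 with vehicle, without overlap, and fell by 0.16 on the log2 scale (SE 0.03, limma adjusted p = 0.00037). CCNF, the cyclin that works as a subunit of a ubiquitin ligase in G2, had a change of 0.09 ± 0.05 and did not pass. Its other probe set was higher when probe sets were tested in place of genes.

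Among the 7 mitotic kinases, 6 were higher with E2 at 24 h. PLK4, the kinase of centriole duplication, had the largest change of them. Its levels were 9.47, 9.49, 9.42 and 9.34 with E2 and 8.86, 8.73, 8.80 and 8.79 with vehicle, an increase of 0.63 ± 0.05 or 1.55-fold (limma adjusted p = 7.6e-10), with a call on each of its 3 probe sets. The spindle checkpoint kinases BUB1 and TTK rose by 0.30 ± 0.04 and 0.19 ± 0.06. TTK was not called when array A of the E2 24 h group was left out. NEK2, which splits the centrosomes, rose by 0.23 ± 0.05 and AURKA, the spindle pole Aurora kinase, by 0.18 ± 0.04. AURKB, the Aurora kinase of the chromosomal passenger complex, had 7.28, 7.29, 7.39 and 7.09 with E2 and 7.01, 6.86, 7.13 and 7.09 with vehicle. It rose by 0.24 ± 0.06, and its lowest E2 array lay within the vehicle range. PLK1, the Polo kinase of mitotic entry, did not pass in any comparison between E2 and vehicle. Its levels of 6.53, 6.67, 6.64 and 6.56 with E2 and 6.44, 6.65, 6.65 and 6.50 with vehicle overlapped (0.04 ± 0.05). Its signal was not far above 6.11, the level under which the dimmest 25% of genes lie, where changes are compressed.

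Of 7 genes of the checkpoint and of anaphase, 5 were higher with E2 at 24 h. MAD2L1, the checkpoint protein that holds CDC20 inactive, had 10.69, 10.75, 10.79 and 10.76 with E2 and 10.30, 10.29, 10.23 and 10.22 with vehicle, an increase of 0.49 ± 0.04 (limma adjusted p = 9.2e-09). BUB1B, its partner in the checkpoint complex, rose by 0.41 ± 0.06. ESPL1, the protease separase that cuts cohesin, rose by 0.38 ± 0.06, and PTTG1, the securin that inhibits it, by 0.26 ± 0.04 on a probe set whose name marks possible cross-hybridisation. UBE2C, which passes ubiquitin to the substrates of the anaphase-promoting complex, rose by 0.18 ± 0.03. Changes of 0.16 ± 0.07 in CDC20, the activator of that complex, and of 0.07 ± 0.03 in BUB3 did not pass. Of the 4 probe sets of BUB3, 1 was higher when probe sets were tested in place of genes.

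At the kinetochore, ZWINT, which links the outer kinetochore to checkpoint proteins, had the largest change of the 43 genes. Its levels were 11.87, 11.93, 11.98 and 11.93 with E2 at 24 h and 11.17, 11.24, 11.24 and 11.26 with vehicle, an increase of 0.70 ± 0.03 or 1.62-fold (limma adjusted p = 6.3e-13). CENPF and the microtubule coupler NDC80 rose by 0.22 ± 0.04 and 0.22 ± 0.06. CENPE, a motor of the kinetochore, had a change of 0.09 ± 0.04 that did not pass. CENPA, the histone variant that marks centromeres, went the other way. It had 8.72, 8.79, 8.76 and 8.76 with E2 and 8.77, 8.92, 9.04 and 9.04 with vehicle, and fell by 0.18 on the log2 scale (SE 0.05, limma adjusted p = 0.0044). The highest E2 array lay above the lowest vehicle array, and the CENPA probe set may cross-hybridise.

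The 4 genes of the chromosomal passengers and chromosome structure, the 7 of the spindle and the 3 measured of the midzone were all higher with E2 at 24 h. PRC1, which bundles midzone microtubules, had 10.70, 10.67, 10.67 and 10.71 with E2 and 9.99, 10.03, 10.09 and 10.11 with vehicle, an increase of 0.64 ± 0.04 (limma adjusted p = 1.7e-11). MKI67, the Ki-67 protein that coats mitotic chromosomes and is used as a proliferation marker, had 8.37, 8.32, 8.39 and 8.32 with E2 and 7.85, 7.77, 7.82 and 7.87 with vehicle. It rose by 0.52 ± 0.06, and its 4 probe sets were all called. CDCA8, the passenger protein borealin, rose by 0.42 ± 0.05, and TOP2A, the topoisomerase that untangles chromosomes, by 0.27 ± 0.04. BIRC5, the passenger protein survivin, rose by 0.25 ± 0.05. On the spindle, the increases ran between 0.19 in TPX2, the activator of AURKA, and 0.42 in SPAG5, which holds spindle poles together, with TACC3, a stabiliser of kinetochore fibres, at 0.41. RACGAP1, a subunit of centralspindlin, rose by 0.41 ± 0.03 and its partner ECT2, which activates RhoA for the cleavage furrow, by 0.18 ± 0.06. FOXM1, the transcription factor of G2/M genes, rose by 0.20 ± 0.06, and its probe set is marked for possible cross-hybridisation.

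After 3 h the same genes moved in both directions and mostly by little. With E2, 14 of the 43 were higher than vehicle, 5 were lower and 24 did not pass, while 13.5% of all genes were higher and 17.6% lower. The median change was 0.08, against 0.00 over all genes. These counts were less stable than those at 24 h, as 8 of the 14 and 2 of the 5 passed the same threshold under each of 15 other fits. The E2 3 h array D was the lowest of its group for 31 of the 43 genes, and without it 18 were higher and 3 lower. Without E2 array A or vehicle array B 9 were higher, and without vehicle array C 3 were lower. At this time the 3′ minus 5′ signal of ACTB, a measure of RNA integrity, averaged 0.38 ± 0.03 on E2 arrays, against 0.31 ± 0.03 on vehicle arrays (SD, n = 4 each). That of GAPDH averaged -0.14 ± 0.01 on E2 arrays and -0.12 ± 0.01 on vehicle arrays. Neither measure overlapped between the groups, and their part in these changes was not tested.

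CDCA8 was the exception in size. Its levels were 9.51, 9.45, 9.56 and 9.31 with E2 at 3 h and 8.16, 8.14, 8.16 and 8.19 with vehicle. The increase was 1.30 ± 0.05 or 2.45-fold (limma adjusted p = 4.4e-14), from the single probe set of the gene. AURKB and BIRC5, which sit in the same passenger complex, had changes of -0.19 ± 0.06 (limma adjusted p = 0.019) and 0.13 ± 0.05 (limma adjusted p = 0.066). The AURKB arrays at 3 h were also close to the dim level, at 6.37, 6.29, 6.26 and 6.28 with E2 and 6.49, 6.41, 6.63 and 6.46 with vehicle. At 3 h CDCA8 was the only one of the 43 genes called at 1.5-fold or more. Of all 11963 genes, 326 were called higher by that much and 309 lower.

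AURKA had the next largest increase. Its levels were 9.43, 9.36, 9.42 and 9.31 with E2 at 3 h and 9.00, 8.96, 8.95 and 8.89 with vehicle, an increase of 0.43 ± 0.04 (limma adjusted p = 6.5e-09) on 2 of its 3 probe sets. The others that passed under each fit were PRC1 (0.29 ± 0.04), TOP2A (0.28 ± 0.04), CCNF (0.25 ± 0.05), CKS2 (0.25 ± 0.06), CENPA (0.20 ± 0.05) and CDK1 (0.16 ± 0.04). When probe sets were tested in place of genes, 1 of the 2 of CCNF and 1 of the 3 of CDK1 were higher. Some of these differences came with a vehicle level under that at 0 h. TOP2A had 9.95, 10.03, 9.92 and 9.86 with E2 at 3 h and 9.65, 9.68, 9.71 and 9.60 with vehicle at 3 h, where the 0 h arrays had 9.88, 9.94, 9.97 and 9.97. The E2 arrays of TOP2A thus overlapped the 0 h arrays. AURKA also had its vehicle arrays at 3 h under its 0 h levels, which were 9.05, 9.18, 9.15 and 9.13. Unlike in TOP2A, the E2 arrays of AURKA at 3 h all lay above those 0 h levels.

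BUB1B, NEK2, NDC80, MKI67, HMMR, a hyaluronan receptor that also binds spindle microtubules, and BUB1 were higher by 0.12 to 0.19 with E2 at 3 h and lost the call under at least 1 other fit. In NEK2, NDC80, HMMR and BUB1 the mean with E2 at 3 h was not above that at 0 h, while vehicle at 3 h was called lower than 0 h. Of the 4 probe sets of MKI67, 0 passed when probe sets were tested in place of genes. Among the genes lower with E2, CENPE had 8.21, 8.11, 8.27 and 8.06 with E2 and 8.42, 8.38, 8.47 and 8.54 with vehicle, and fell by 0.29 on the log2 scale (SE 0.04, limma adjusted p = 2.7e-05). ASPM, which organises spindle poles, had 9.61, 9.55, 9.51 and 9.44 with E2 and 9.69, 9.68, 9.71 and 9.64 with vehicle, and fell by 0.15 (SE 0.04, adjusted p = 0.0022). In both genes the E2 arrays lay below the vehicle arrays without overlap. CDC20, AURKB and BUB3 were lower by 0.20, 0.19 and 0.11, and lost the call under at least 1 other fit. When probe sets were tested in place of genes, however, all 4 of BUB3 were lower. The probe sets not used for the gene changed by -0.27, -0.21 and -0.18.

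**Figure D2:**
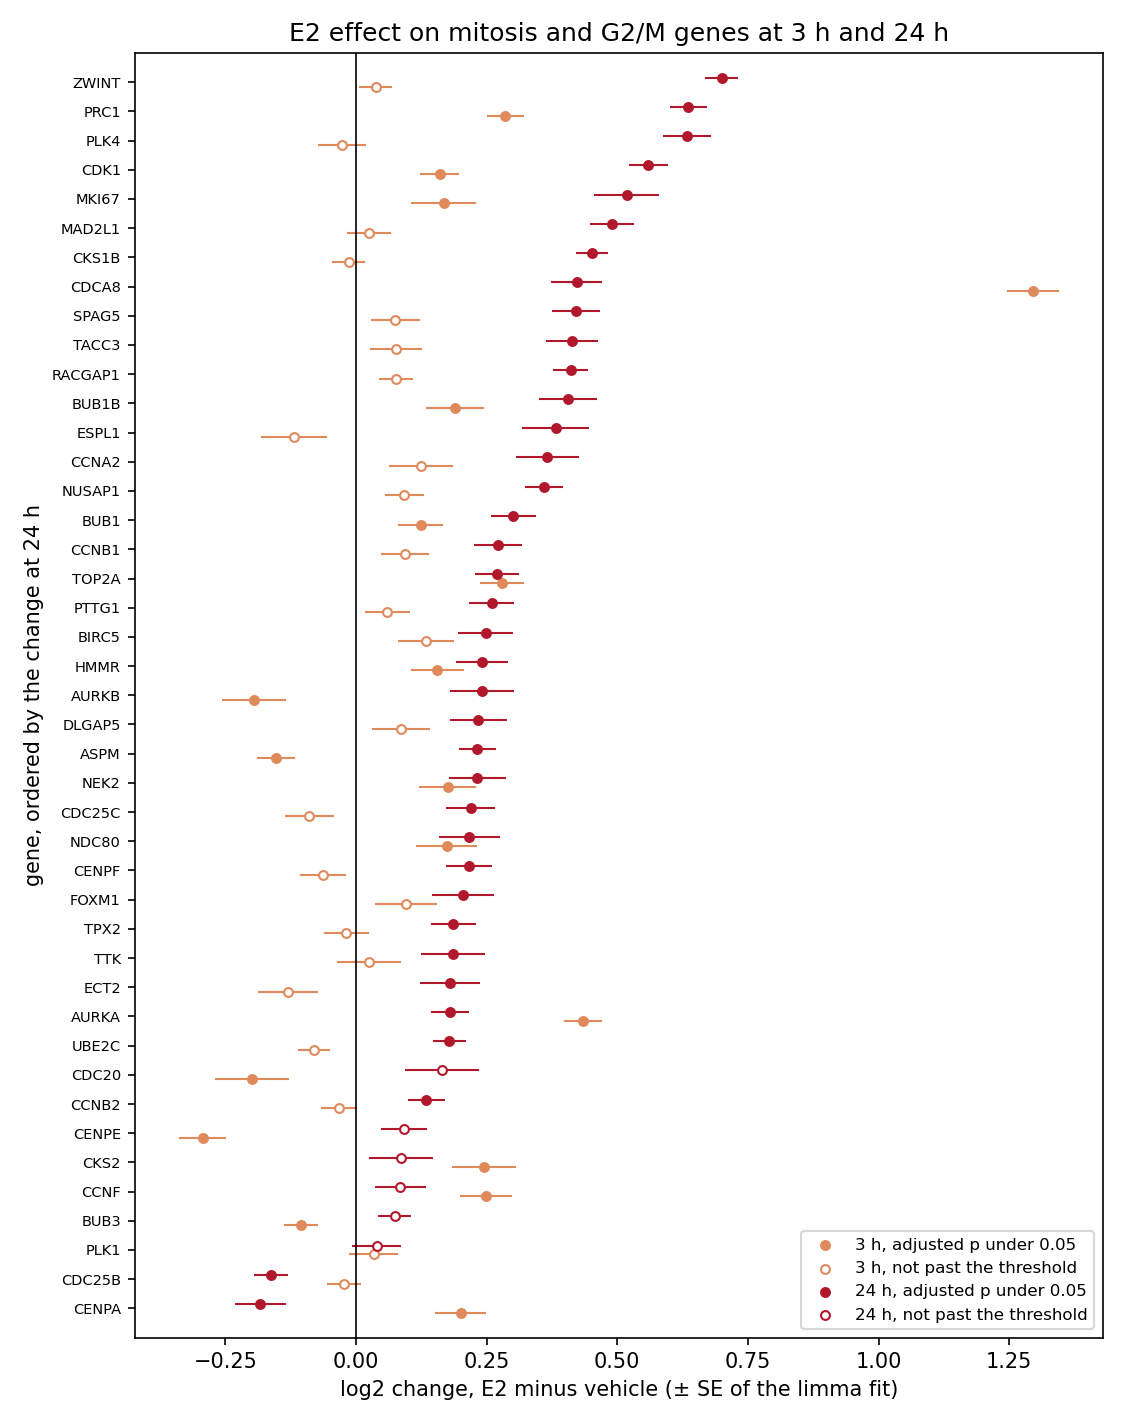
Change with E2 against vehicle for each of the 43 genes, as log2 change ± SE of the limma fit, at 3 h (orange) and 24 h (dark red), ordered by the change at 24 h. Filled points passed an adjusted p of 0.05. At 24 h 35 genes lie to the right of 0 with filled points. At 3 h the points lie between -0.29 for CENPE and 0.43 for AURKA, with CDCA8 beyond them at 1.30.

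The E2 effects at the 2 times were tested against each other. The effect at 24 h was above that at 3 h for 28 of the 43 genes and below it for 4, against 16.5% and 17.8% of all genes, and 11 genes did not pass. These differences are signed, so they do not compare the sizes of the effects. All 7 genes of the checkpoint and of anaphase had a positive difference, 0.18 to 0.50. Among them, BUB3 and CDC20 were lower with E2 at 3 h and did not pass at 24 h. ZWINT and PLK4 had the largest positive differences, 0.66 ± 0.04 and 0.66 ± 0.06, with effects at 3 h of 0.04 and -0.03. The difference was negative for CDCA8 (-0.87 ± 0.07), CENPA (-0.38 ± 0.07), AURKA (-0.25 ± 0.05) and CDC25B (-0.14 ± 0.05). CDCA8 and AURKA had smaller increases at 24 h, whereas CDC25B was lower with E2 at 24 h and did not pass at 3 h. Of the genes called at both times, 11 were higher at both, ASPM and AURKB were lower at 3 h and higher at 24 h, and CENPA was higher at 3 h and lower at 24 h. TOP2A had nearly the same effect at the 2 times, with a difference of -0.01 ± 0.06, and PLK1 did not pass at either.

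Mitosis and G2/M genes also rose in vehicle cells. After 24 h of vehicle, 36 of the 43 were higher than at 0 h and 0 were lower by the limma adjusted p, while 7.55% of all genes were higher and 4.37% lower. Without adjustment, 42 of the 43 passed the same threshold, against 26.2% of all genes, and 1 of these, CDC25B, was lower. The median change was 0.36, against -0.01 over all genes. Of the 43, 38 had their 4 vehicle arrays above the 4 arrays at 0 h, against 11.5% of all genes. A change of 1.5-fold or more was reached by 5 of the 43 and by 0.242% of all genes. The ACTB 3′ minus 5′ signal was 0.40 ± 0.03 in vehicle cells at 24 h and 0.47 ± 0.01 at 0 h (SD, n = 4), without overlap of the arrays, and its part was not tested.

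The 5 genes were the kinetochore gene NDC80, the spindle genes DLGAP5 and NUSAP1, ESPL1 and AURKB. NDC80 had 7.98, 8.08, 7.91 and 7.99 in vehicle at 24 h and 7.16, 7.35, 7.30 and 7.30 at 0 h, an increase of 0.71 ± 0.06 or 1.64-fold (limma adjusted p = 9.8e-08). NUSAP1, which bundles spindle microtubules, had 10.56, 10.56, 10.63 and 10.63 in vehicle at 24 h and 9.82, 9.95, 9.94 and 9.94 at 0 h, an increase of 0.69 ± 0.04. Both groups of arrays were well apart in these genes. DLGAP5, which stabilises kinetochore fibres, rose by 0.70 ± 0.06, ESPL1 by 0.64 ± 0.06 and AURKB by 0.61 ± 0.06. CENPA rose by 0.51 ± 0.05, MKI67 by 0.52 ± 0.06 and CDK1 by 0.49 ± 0.04. CDC25B, BUB3, CKS1B, PLK1, CKS2, CDC20 and ECT2 did not pass.

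In the first 3 h of vehicle the movement was in the other direction for some genes. Relative to 0 h, 3 of the 43 were higher, 11 were lower and 29 did not pass, against 9.95% and 10.1% of all genes, and the median change was -0.03. HMMR fell by 0.28 on the log2 scale (SE 0.05), TOP2A by 0.28 (SE 0.04), NDC80 by 0.23 (SE 0.06), CDC25C by 0.19 (SE 0.05), AURKA by 0.18 (SE 0.04) and ASPM by 0.16 (SE 0.04). The falls of BUB1, CCNB1, CCNB2, DLGAP5 and NEK2 lost the call under at least 1 other fit. Without Vehicle 3 h array B or D 6 genes were lower, and without 0 h array B or D 7 were. CDC25B rose by 0.31 ± 0.03 with levels of 10.24, 10.26, 10.20 and 10.29 in vehicle at 3 h and 9.95, 9.98, 9.93 and 9.88 at 0 h, and PLK4 rose by 0.18 ± 0.05 and CCNF by 0.15 ± 0.05. The ACTB 3′ minus 5′ signal averaged 0.31 ± 0.03 in vehicle at 3 h and 0.47 ± 0.01 at 0 h (SD, n = 4 each), without overlap of the arrays, and its part was not tested.

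Relative to 0 h, 42 of the 43 genes were higher after 24 h of E2 and 1, CDC25B, was lower, against 19.2% and 22.4% of all genes. The median change was 0.68. In 42 genes the E2 arrays lay above the 0 h arrays (18.7% of all genes), and 25 rose by 1.5-fold or more (3.36% of all genes). PRC1, CDK1, NUSAP1, MKI67 and ESPL1 had the largest increases, 2.03-fold to 2.08-fold. ACTB had a 3′ minus 5′ signal of 0.38 ± 0.01 with E2 at 24 h and of 0.47 ± 0.01 at 0 h (SD, n = 4 each). The arrays did not overlap in it, and its part was not tested. This comparison shares its arrays with E2 against vehicle at 24 h and with vehicle against 0 h, so the values are given side by side only. The changes from 0 h were 1.05 with E2 and 0.69 with vehicle for NUSAP1, 0.93 and 0.71 for NDC80, 0.92 and 0.22 for ZWINT, 0.87 and 0.24 for PLK4, and 0.51 and 0.06 for CKS1B. NUSAP1 and NDC80 had large changes in both, while the vehicle change was 0.24 or less for ZWINT, PLK4 and CKS1B. CENPA alone had the smaller increase with E2, 0.33 ± 0.05, against 0.51 ± 0.05 with vehicle.

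**Figure D3:**
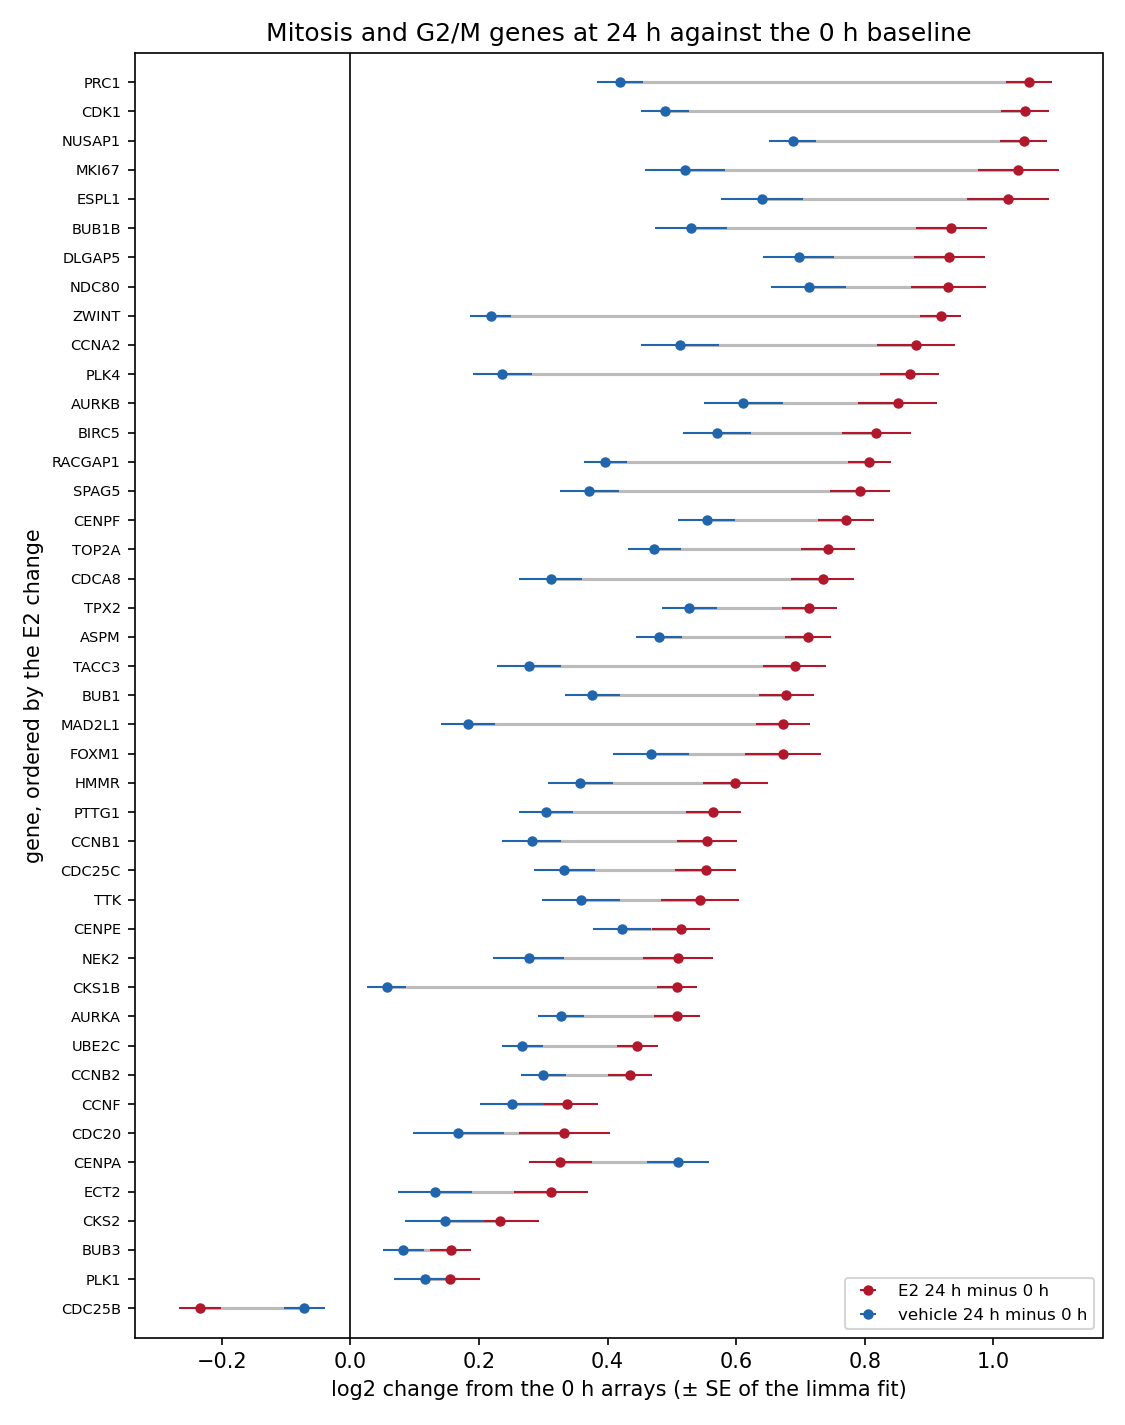
Change from the 0 h arrays for each of the 43 genes after 24 h of E2 (red) or vehicle (blue), as log2 change ± SE of the limma fit, ordered by the E2 change. A grey line joins the 2 values of a gene, which share the same 0 h arrays. The E2 points lie between -0.23 and 1.06 and the vehicle points between -0.07 and 0.71.

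Across the 5 groups, the mean level was highest with E2 at 24 h for 39 genes. CCNF and CDCA8 were highest with E2 at 3 h, CDC25B with vehicle at 3 h and CENPA with vehicle at 24 h. The lowest mean was with vehicle at 3 h for 20 genes, with E2 at 3 h for 12, at 0 h for 10 and with E2 at 24 h for 1, CDC25B. These counts of highest and lowest means were not set against the shares over all genes. The median over the 43 genes of the level minus the 0 h mean was between -0.04 and 0.03 on the 0 h arrays, between -0.08 and 0.05 with E2 at 3 h, between -0.06 and -0.03 with vehicle at 3 h, between 0.67 and 0.72 with E2 at 24 h and between 0.34 and 0.40 with vehicle at 24 h. The arrays thus fell into 3 levels, with the E2 and the vehicle arrays at 24 h apart from each other and both above the rest. Not every neighbour in the order was distinct within a gene. In CKS1B, E2 at 24 h stood above the other 4 groups, whose arrays overlapped from each group to the next. In PLK1, the arrays overlapped between all neighbours. In ASPM, each group was clear of the next, in the order E2 24 h, vehicle 24 h, 0 h, vehicle 3 h and E2 3 h.

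**Figure D4:**
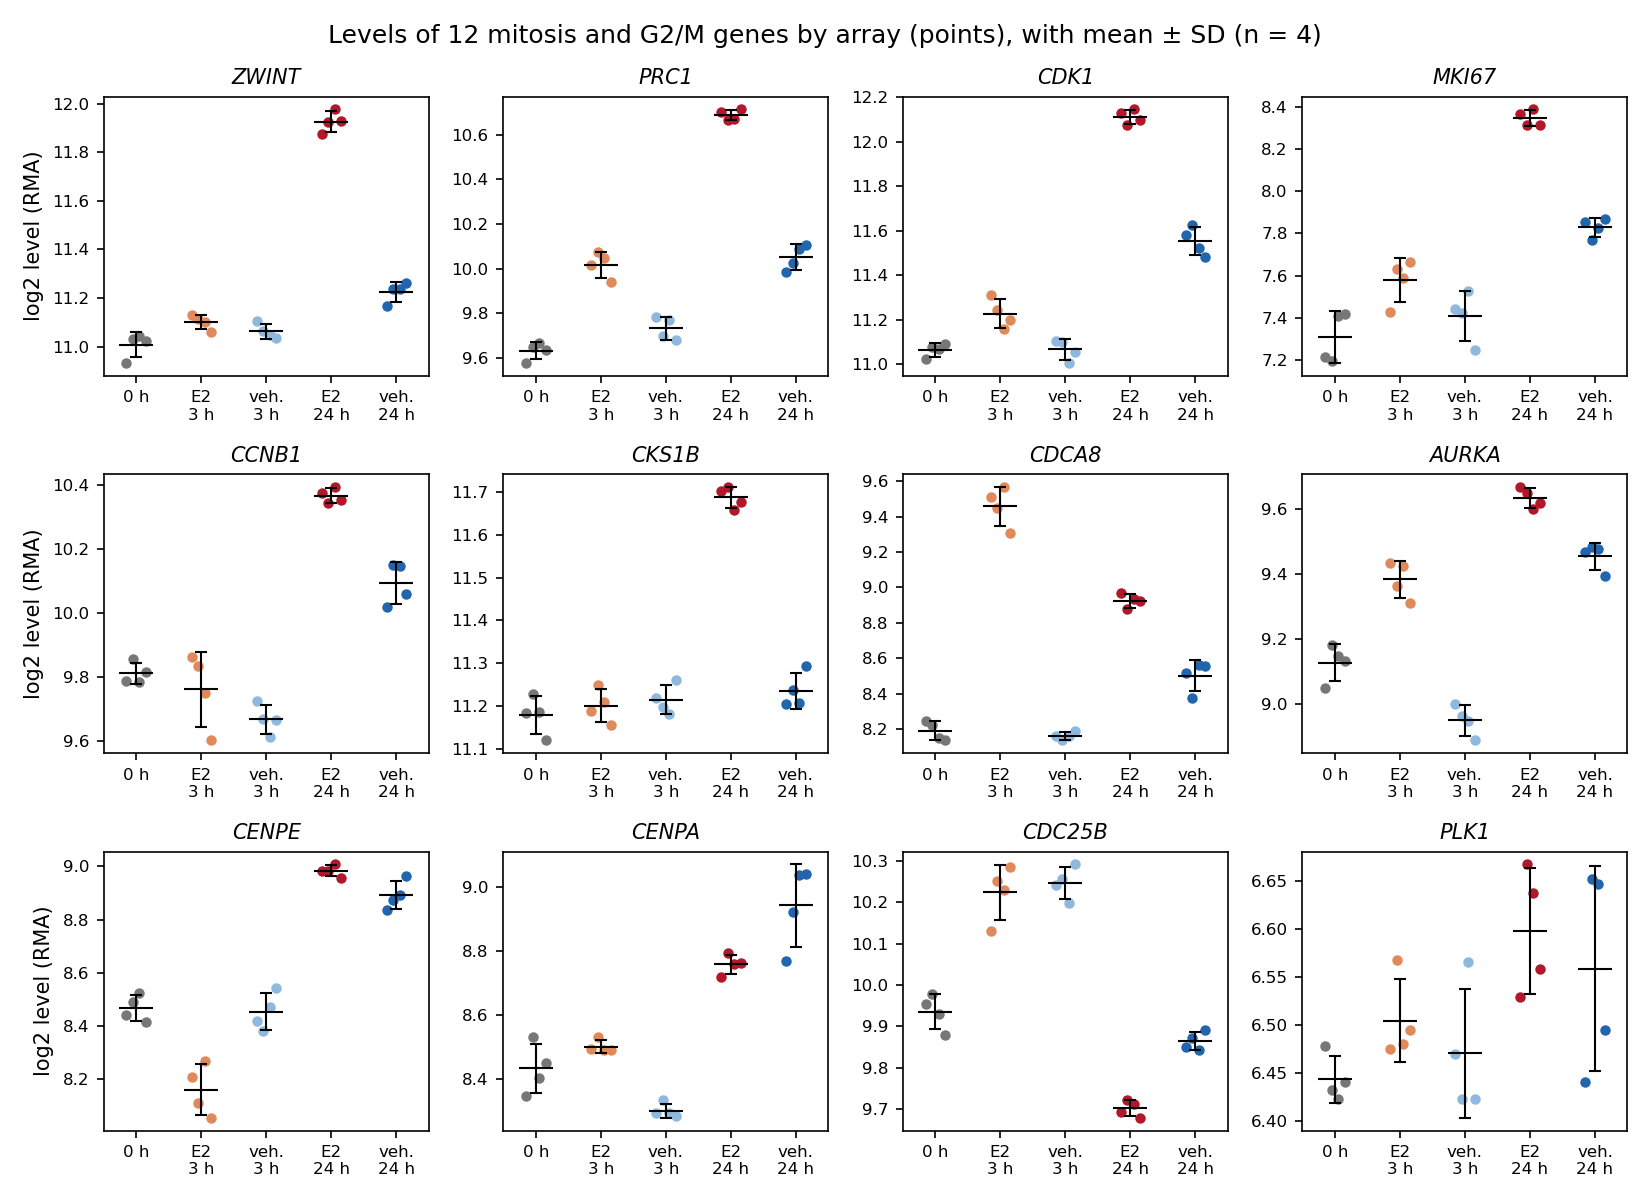
Log2 level of 12 of the genes on each array (points) by group, with mean and SD (n = 4), and an own scale for each gene. ZWINT, PRC1, CDK1, MKI67, CCNB1 and CKS1B are highest with E2 at 24 h, CDCA8 is highest with E2 at 3 h, and CDC25B is lowest with E2 at 24 h.

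A separate list of other mitosis genes, 59 measured, held further genes of kinetochores, condensin, the anaphase-promoting complex and the spindle. At 24 h 40 were higher with E2 and 4 lower, with a median of 0.35. The 5 with the smallest p were CENPU (1.04 ± 0.05) and CENPM (0.83 ± 0.04) of the inner kinetochore, ZWILCH (0.82 ± 0.05) and KNTC1 (0.74 ± 0.04) of the complex that brings dynein to kinetochores, and the condensin subunit NCAPG2 (0.73 ± 0.04). In vehicle at 24 h against 0 h, 31 of the 59 were higher and 0 lower (limma adjusted p), and 41 passed in either direction without adjustment, against the same 26.2% of all genes. KNTC1 and ZWILCH did not pass there (0.03 ± 0.04 and 0.03 ± 0.05), whereas CENPU was higher by 0.26 ± 0.05. DNA replication genes, 44 measured, were set beside these as the S phase machinery. At 24 h 42 were higher with E2 and 1 lower, with a median of 0.70. In vehicle at 24 h against 0 h, 7 of the 44 were higher and 5 lower with a median of 0.00, where the 43 mitosis and G2/M genes had 36 higher, 0 lower and a median of 0.36. The difference between these lists was not tested.

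**Figure D5:**
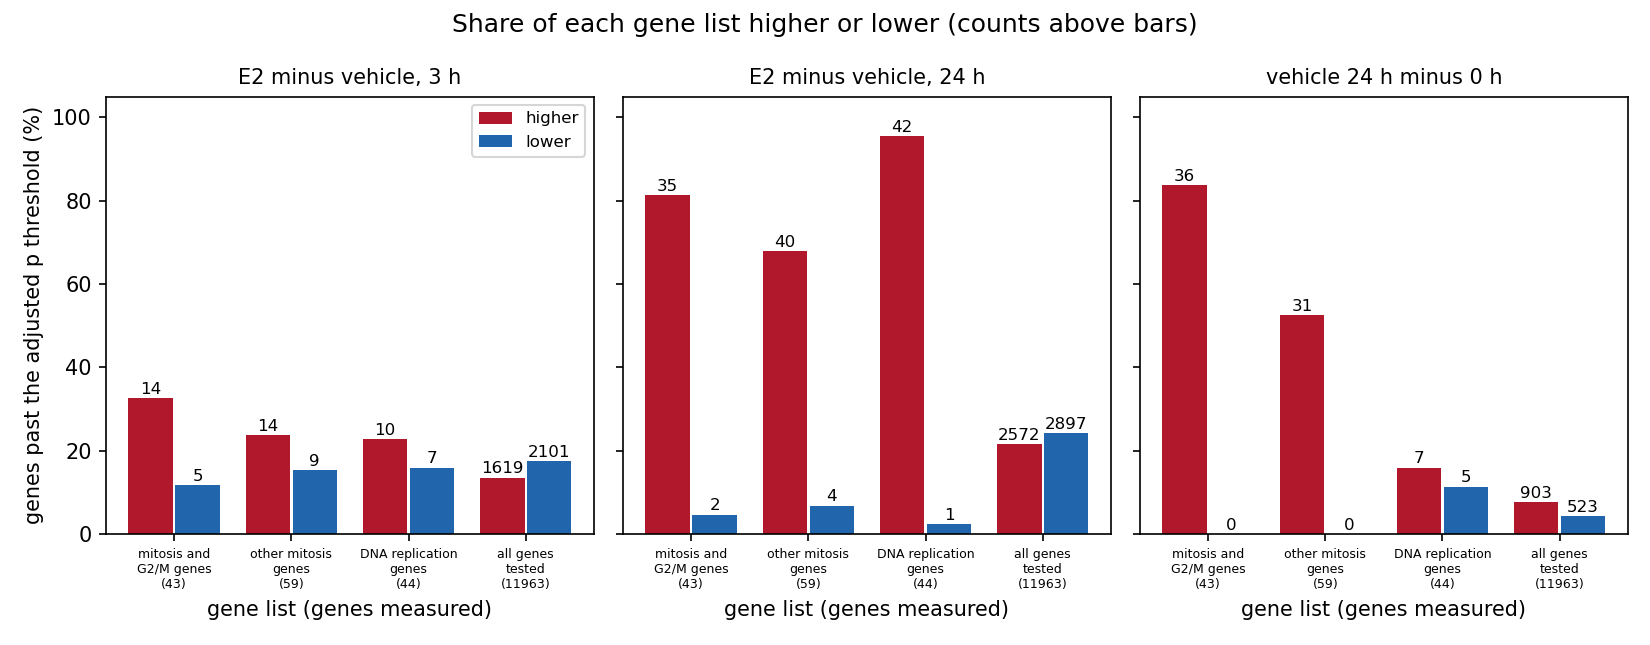
Share of each gene list (percent of genes measured) that passed the limma adjusted p threshold as higher (red) or lower (blue) in 3 comparisons, with counts above the bars. In vehicle at 24 h against 0 h the bars for higher genes stand at 36 of 43 mitosis and G2/M genes, 31 of 59 other mitosis genes, 7 of 44 DNA replication genes and 903 of 11963 genes in all.

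Several genes are read by more than 1 probe set. Of the 16 of the 43 with several, 14 were called at 24 h, and 9 of these had all their probe sets called that way. In none of the 6 comparisons was a second probe set of a called gene among the 43 called in the opposite direction. Correlations between arrays were 0.998 to 0.999 within groups and 0.988 to 0.998 between groups, and 0 pairs were identical. All 11 luminal breast epithelial markers examined lay above the dim level in each group. Of 14 basal, stromal, immune and endothelial markers, 8 to 10 lay below it, and the brightest, COL1A1, had 8.57 with E2 at 24 h and 8.42 with vehicle at 24 h. The COL1A1 probe set is marked for possible cross-hybridisation. Of the 4 probe sets of COL1A1, 1 was higher and 1 lower with E2 at 24 h. Both lists held genes that changed with E2. Of the 11 luminal markers, 5 were higher and 4 lower at 24 h, with changes of 0.66 ± 0.04 for KRT19 and -0.51 ± 0.04 for GATA3. At 3 h 4 were higher and 4 lower, where GATA3 changed by -2.07, the largest fall of the list, and FOXA1 by -1.30 ± 0.06. Of the 14 others, 3 were higher and 2 lower at 24 h, and 0 were higher and 1 lower at 3 h. Among all genes tested, 21.5% were higher and 24.2% lower at 24 h, and 13.5% and 17.6% at 3 h. PECAM1, an endothelial marker, was lower at both times, with changes of -0.42 ± 0.08 at 24 h and -0.26 ± 0.08 at 3 h. The part of these changes in those of the mitosis and G2/M genes was not tested.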

How the data were processed

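Gene expression was measured on 20 one-colour Affymetrix arrays. The authors deposited 1 log2 value per probe set and array, with RMA and affy named in the submitters' processing notes. Versions are not given in the sources used here. Groups and replicate letters came from the sample titles. Of 22277 probe sets, 62 controls were left out. Of the others, 19064 had 1 gene symbol, 1043 several and 2108 none. Entrez numbers of 19052 matched RefSeq, which changed 0 symbols. Each gene was read from its brightest probe set (by the mean of all 20 arrays), without a filter on dim genes, which gave 11963 genes.

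All arrays were fitted together in limma 3.58.1 (R 4.3.3), as a mean per group with no block and moderated two-sided tests from lmFit and eBayes, with Benjamini-Hochberg adjustment over all genes and a threshold of 0.05. Errors after ± are standard errors of that fit unless SD is named. The fit was tested on simulated data. Alternatives covered arrays in the fit, a replicate block, centring, dim genes, probe set choice, variance prior, array weights, a threshold of 0.01 and single arrays left out. The members and the gene lists were chosen with earlier results of these data known. All members could be named, and of the other mitosis genes the 5 with the smallest p in E2 against vehicle at 24 h. The number of arrays limits the precision. Columns of other samples numbered 0.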

Additional observations from a re-analysis of the deposited data

Results flagged for a closer look

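The E2 effect differed between the 2 times for 32 of the 43 genes, by limma's test of the difference itself (Benjamini-Hochberg adjusted p under 0.05), with n = 4 arrays in each of the 4 groups. By the same test, the effect at 24 h was above that at 3 h for 16.5% of all genes and below it for 17.8%. The difference, the E2 effect at 24 h minus that at 3 h on the log2 scale, was 0.66 for ZWINT, 0.66 for PLK4, 0.50 for ESPL1, 0.47 for CKS1B, 0.47 for MAD2L1, 0.44 for AURKB, 0.40 for CDK1, 0.39 for ASPM and 0.39 for CENPE. It was 0.36 for CDC20, 0.35 for PRC1, 0.35 for MKI67, 0.35 for SPAG5, 0.34 for TACC3, 0.33 for RACGAP1, 0.31 for ECT2, 0.31 for CDC25C, 0.28 for CENPF and 0.27 for NUSAP1. It was 0.26 for UBE2C, 0.24 for CCNA2, 0.22 for BUB1B, 0.20 for TPX2, 0.20 for PTTG1, 0.18 for BUB3, 0.18 for CCNB1, 0.18 for BUB1 and 0.17 for CCNB2. The differences below 0 were -0.14 for CDC25B, -0.25 for AURKA, -0.38 for CENPA and -0.87 for CDCA8. Adjusted p-values of the limma fit lay between 6.2e-10 for ZWINT and 0.04 for CCNB1 and BUB1B.

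In 13 of 215 sets of 4 arrays examined (43 genes in 5 groups), the highest or lowest array stood apart from the other 3 by Dixon's criterion for the gap relative to the range. Chance alone flags about 5% of sets. Array A of the 0 h group was the low one for BUB1B (9.29), ZWINT (10.93), NUSAP1 (9.82) and RACGAP1 (10.46). With E2 at 3 h, array B was high for CENPA (8.53) and array D was low for FOXM1, at 7.75 against 8.02 to 8.05 on the others. In vehicle at 3 h, array B was high for ECT2 (9.76) and array D low for RACGAP1 (10.41). With E2 at 24 h, array A was high for BIRC5 (9.11), array C high for RACGAP1 (11.39) and array D low for HMMR (9.90). In vehicle at 24 h, array D was high for BUB1, at 9.01 against 8.90 to 8.91, and array A was low for CDC20 (7.97).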

How the results depend on the processing

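The counts at 24 h changed little. With each array left out in turn, and under the other settings, they stayed within 1.5 times the counts given, and no called change of a gene turned its sign. At 3 h the counts moved more. E2 against vehicle at 3 h gave 8 genes higher and 2 lower at a threshold of 0.01, and 9 and 3 when only the arrays compared were fitted. With single arrays left out it gave 9 to 18 higher, with 9 without Vehicle 3 h array B or E2 3 h array A, and 3 to 6 lower, with 3 without Vehicle 3 h array C or E2 3 h array D. Vehicle at 3 h against 0 h gave 6 lower at 0.01, and 6 to 13 with single arrays left out. Outside the removal of samples or the stricter threshold, the cause was not tested. The deviations of same-letter arrays correlated by over 0.1 in 6 of 40 pairs (median 0.01), and those of different-letter arrays in 18 of 120. Most letters thus showed no pairing. The highest same-letter correlation was 0.37, for array D with E2 at 3 h and at 24 h, against 0.20 at most between different letters. With the letter as a replicate block, 35 genes were higher and 2 lower with E2 at 24 h, and 12 and 5 at 3 h. With the block, the difference between times gave 27 and 4, vehicle against 0 h gave 36 and 0 at 24 h and 2 and 11 at 3 h, and E2 at 24 h against 0 h gave 42 and 1. Of the values of single genes under these settings, 4032 kept their side of the threshold, 124 lost the call and 58 gained it. PLK1 and AURKB had arrays close to the dim level, which limits their values.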

Other observations

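The spread between arrays of a group, as the median SD over the 43 genes, was 0.06 at 0 h, 0.07 with E2 at 3 h, 0.05 with vehicle at 3 h, 0.04 with E2 at 24 h and 0.06 with vehicle at 24 h. The widest single SD was that of TTK with E2 at 3 h (0.18). Array A was the lowest of the 0 h group for 25 of the 43 genes and the lowest of the vehicle 24 h group for 21, and array C was the highest of the E2 24 h group for 22. The DNA replication genes had medians of 0.06 to 0.15 above the 0 h mean on the arrays with E2 at 3 h, 0.03 to 0.10 with vehicle at 3 h, 0.69 to 0.77 with E2 at 24 h and -0.02 to 0.03 with vehicle at 24 h.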
